A study of Mus musculus with 3 samples.

Results

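Interferon-stimulated genes are the genes that cells switch on when an interferon reaches them. A list of 39 mouse genes of this kind was taken by symbol, with no threshold on their measured values, and 38 of them had a row among the 32287 features of the 1 count matrix of the series. Mx1 had no row and was not analysed here. The matrix came from PC cells, a culture grown from mouse esophageal organoids, and was read by droplet single-cell RNA sequencing, in which each unique molecular identifier (UMI) stands for 1 captured transcript. The question was how high these genes stood, whether a set of cells carried many of them at once, and in which kinds of cell.

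All cells shared 1 genotype and 1 treatment. The organoids came from mice with floxed Trp53, which Ad-Cre-EGFP (an adenovirus that delivers Cre recombinase and a green fluorescent protein) was used to knock out, and Cdkn2a was then disrupted with CRISPR/Cas9. The cells expressed Cas9 constitutively, were given a barcode library with Lipofectamine 3000, grown for further passages and sorted for live RFP-positive cells, and the submitters label the source as Esophageal Cancer. No untreated, interferon-treated or unedited culture is part of the matrix, and there was 1 sample with no replicate. No p-value is therefore given: a gene counts as higher or lower in a set of cells when its level differs by at least 2-fold, and every interval is an exact 95% interval that covers counting error only.

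Interferons act through surface receptors and JAK kinases. Types I and III lead to a transcription factor complex with STAT2 and IRF9 that binds the interferon-stimulated response element (ISRE), whereas genes induced by interferon gamma often carry the gamma-activated site (GAS). The products block viruses at entry, at translation and in RNA stability, and several of them (IRF7, IRF9, STAT2, and the RNA sensors) belong to the pathway itself. Epithelia such as that of the esophagus can also respond to type III interferon through a receptor that most mesenchymal cells lack.

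The promoters of 5 members are shown because the results turn on these genes: Ifit1, Ifit3, Isg15 and Rsad2 were 9.12-fold to 39.7-fold higher in cells that showed 3 or more others of a core of 30 members than in cells that showed none, Rsad2 on few UMIs, and Ifitm3 had a ratio of 0.948 over the same cells. Each sequence runs 5′ to 3′ on the gene's own strand from 170 bases before the RefSeq transcript start to 30 bases after it, on GRCm38.p6, with capitals marking every match to the ISRE letters GAAANNGAAA on either strand, overlapping matches included.
Ifit1, chr19:34640719-34640918, plus strand: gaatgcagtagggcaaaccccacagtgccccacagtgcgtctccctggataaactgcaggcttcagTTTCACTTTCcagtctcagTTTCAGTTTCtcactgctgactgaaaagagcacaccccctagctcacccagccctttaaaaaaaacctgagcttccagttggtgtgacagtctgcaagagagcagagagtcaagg
Ifit3, chr19:34583359-34583558, plus strand: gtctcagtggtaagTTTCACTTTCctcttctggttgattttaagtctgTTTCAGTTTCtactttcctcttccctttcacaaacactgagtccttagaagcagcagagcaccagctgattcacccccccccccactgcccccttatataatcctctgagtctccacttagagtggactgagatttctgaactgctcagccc
Isg15, chr4:156200789-156200988, minus strand: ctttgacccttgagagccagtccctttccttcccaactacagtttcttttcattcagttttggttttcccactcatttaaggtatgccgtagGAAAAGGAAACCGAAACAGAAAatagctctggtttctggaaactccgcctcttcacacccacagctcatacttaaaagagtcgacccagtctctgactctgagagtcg
Rsad2, chr12:26456423-26456622, minus strand: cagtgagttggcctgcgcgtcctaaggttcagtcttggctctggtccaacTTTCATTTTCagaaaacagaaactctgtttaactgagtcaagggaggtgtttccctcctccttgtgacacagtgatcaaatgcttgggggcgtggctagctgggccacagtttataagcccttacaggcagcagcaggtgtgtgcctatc
Ifitm3, chr7:141010715-141010914, minus strand: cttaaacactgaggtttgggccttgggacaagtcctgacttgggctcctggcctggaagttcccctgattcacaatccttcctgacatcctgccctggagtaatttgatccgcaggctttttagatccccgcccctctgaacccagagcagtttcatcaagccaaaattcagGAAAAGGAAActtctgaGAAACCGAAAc
Ifit1 and Ifit3 each hold a pair of separate matches upstream of the start, Isg15 holds 3 overlapping ones and Rsad2 holds 1. In Ifitm3 both matches lie just after the start.

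RefSeq promoter windows of 300 bases, 250 before the start and 50 after it, were found for 30 of the members. The ISRE letters occurred in 14 of these 30 genes, against 3.99% of the 27025 genes with a window, when both strands were read. The GAS letters TTCNNNGAA, which read the same on both strands, occurred in 8 of the 30, against 9.55% of all genes. The ISRE letters were present in Bst2, Eif2ak2, Gbp2, Gbp3, Ifih1, Ifit1, Ifit3, Ifitm3, Isg15, Oas1a, Oas3, Rsad2, Stat2 and Trim30a. A match describes these windows and is not a measured binding site.

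Filters on genes (500 or more), UMIs (1000 or more) and mitochondrial UMIs (20% or less) kept 14925 of 18116 barcodes, with 45443280 UMIs and a median of 2955 per cell. The labels give about 20000 recovered cells, counted before sequencing and so over another denominator. A marker gate put 11955 cells into an epithelial class and 1571 into a mesenchymal class. Another 148 cells carried both kinds of marker and 1251 carried too few of either. Epcam was found in 94.4% of epithelial and 3.76% of mesenchymal gate cells and Vim in 1.67% and 95.2%, with median depths of 3004 and 3328 UMIs. Lox, a matrix enzyme gene of mesenchymal cells that the gate did not use, was found in 49.8% of mesenchymal and 1.82% of epithelial gate cells. Free RNA in the droplets could give part of the latter share, which was not tested. Immune markers were nearly absent: 49 UMIs in all for 12 genes, 5 of them at 0, and Ptprc, the pan-leukocyte marker, had 1 UMI.

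Together the 38 genes stood at 4163 CPM (UMIs per 1000000; 4144 to 4182), and 1 gene made up most of it. Ifitm3, which encodes a membrane protein that blocks virus entry, stood at 2700 CPM (2685 to 2715), ranked 36 of 20908 features with a UMI, and supplied 64.9% of all member UMIs. It was detected in 91.9% of cells. The next were Bst2, the virus-tethering surface protein tetherin, at 280.8 CPM, Ifi27, a small mitochondrial protein, at 229.9 CPM, Isg15, a ubiquitin-like protein, at 172.5 CPM (168.7 to 176.4), and Samd9l at 121.6 CPM. These 5 members were at 100 CPM or more, 20 stood between 10 and 100 CPM and 13 under 10 CPM, with a median of 20.01 CPM. Each molecule is counted once at its 3′ end in this assay, so these levels were not divided by transcript length.

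By role, the membrane and secreted proteins (Ifitm3, Bst2, Rtp4, Lgals3bp) summed to 3047 CPM and the enzymes, GTPases and other effectors to 555.7 CPM. The ISG15 system with the ubiquitin and ADP-ribose enzymes (Isg15, Usp18, Herc6, Trim25, Dtx3l, Parp9, Parp14) summed to 304.3 CPM and the 4 transcription factors to 114.0 CPM. The RNA sensors Ifih1 (MDA5), Dhx58 (LGP2), Zbp1 and Eif2ak2 (PKR) reached 76.6 CPM together, of which Eif2ak2 alone gave 49.1 CPM. Lowest were the IFIT proteins, which bind viral RNA, at 37.5 CPM and the OAS family, some members of which make the activator of RNase L, at 28.5 CPM. Within the OAS family Oasl2 gave 22.9 CPM, Oas1a and Oasl1 2.40 and 2.31 CPM, and Oas3 and Oas2 32 and 11 UMIs in all cells.

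The classical, strongly inducible genes were rare but unevenly spread. Ifit1 (ENSMUSG00000034459, chromosome 19, 34640871 to 34650009, plus strand, GENCODE M21) had 880 UMIs, or 19.4 CPM (18.1 to 20.7), in 589 cells, 3.95% of them, with up to 17 UMIs in a cell. Ifit3 (ENSMUSG00000074896, chromosome 19, 34583531 to 34588731) had 621 UMIs in 412 cells, and Ifit2, at lower coordinates on the same chromosome (34550694 to 34576419), had 201 UMIs in 179 cells. Rsad2 (ENSMUSG00000020641, chromosome 12, 26442746 to 26456452, minus strand), which encodes the antiviral enzyme viperin, had 231 UMIs in 162 cells. Isg15 (ENSMUSG00000035692, chromosome 4, 156199424 to 156200818, minus strand) reached 31 UMIs in a cell and was found in 23.5% of cells. By contrast, Isg20, an RNA exonuclease, had 1612 UMIs in 1480 cells and at most 3 in any cell.

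Several members belong to families of related genes (IFIT, OAS, IFITM, GBP and TRIM30 genes), and Dtx3l and Parp9 overlap on opposite strands of chromosome 16. How shared reads were assigned is not given in the sources used here, so the split within these families is uncertain.

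The summed list was lower in mesenchymal than in epithelial cells, but the order turned when Ifitm3 was left out. All 38 members stood at 3221 CPM in the mesenchymal and 4378 CPM in the epithelial gate, a ratio of 0.736 (0.724 to 0.747). Without Ifitm3 the ratio was 1.90 (1.86 to 1.93), in the other direction. Ifitm3 itself stood at 743.5 CPM in mesenchymal and 3072 CPM in epithelial cells, a ratio of 0.242 (0.235 to 0.2498). A core of 30 members was the measured genes without Ifitm3, Lgals3bp, Bst2, Ifi27, Irf1, Eif2ak2, Trim25 and Isg20. These were left out as genes that many cells can express without interferon, which was not tested here. The core stood at 1414 and 665.6 CPM, a ratio of 2.12 (2.07 to 2.18). Isg15 alone gave 526.4 and 118.7 CPM of these sums. When the core was dealt alternately into 2 lists, the 15 genes without Isg15 had a ratio of 1.79 (1.72 to 1.87). The 15 genes with it had a ratio of 2.36 (2.29 to 2.44).

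Of the 31 members with at least 20 UMIs expected in the smaller gate, 12 were at least 2-fold higher in mesenchymal cells, where 8.79% of all 10696 features tested the same way were. Only Ifitm3 and Irf1 were at least 2-fold lower, against 13.0% of all features. The median ratio of the members was 1.60 and that of all features 0.95. The features that define the gates are among those tested, and part of their marker list had been chosen from earlier results of these cells.

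Trim30a, a regulator of innate signalling, differed most, with 44.8 CPM (39.4 to 50.9) in mesenchymal and 4.13 CPM (3.50 to 4.84) in epithelial cells, a ratio of 10.9 (8.83 to 13.4). Lgals3bp, a secreted glycoprotein, stood at 62.9 and 8.42 CPM, 7.47-fold higher in mesenchymal cells. For comparison, Lox, which the gate did not use, stood at 249.7 and 6.55 CPM. Isg15 stood at 526.4 CPM (507.1 to 546.1) and 118.7 CPM (115.2 to 122.2), 4.44-fold (4.23 to 4.65) higher. Herc6, the mouse ligase that attaches ISG15, and Gbp3, a guanylate-binding GTPase, followed at 3.82-fold and 3.80-fold. All 3 IFIT genes were past 2-fold: Ifit1 at 48.6 against 15.1 CPM, Ifit2 at 9.86 against 3.54 CPM and Ifit3 at 29.2 against 11.4 CPM.

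Bst2 (3.02-fold), Gbp2 (2.30-fold), Xaf1 (2.08-fold) and Ifih1 (2.07-fold) complete the higher group. Irf1, a transcription factor that interferon gamma and inflammatory signals induce, stood at 69.0 CPM (66.4 to 71.7) in epithelial and 29.96 CPM (25.5 to 35.0) in mesenchymal cells, a ratio of 0.434 (0.368 to 0.509). The rest lay within 2-fold: Oasl2 (1.03), Parp9 (1.05), Samd9l (1.09), Usp18 (0.872) and Parp14 (0.832) stood near the same level in both gates. The 7 members under the expected-UMI limit were Oasl1, Oas1a, Oas2, Oas3, Dhx58, Zbp1 and Cmpk2. Among them Zbp1 (35 and 104 UMIs, ratio 2.34, 1.54 to 3.45) and Dhx58 (21 and 53 UMIs, ratio 2.75, 1.58 to 4.64) were higher in mesenchymal cells, and Oasl1 had 4 mesenchymal against 101 epithelial UMIs.

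**Figure D1:**
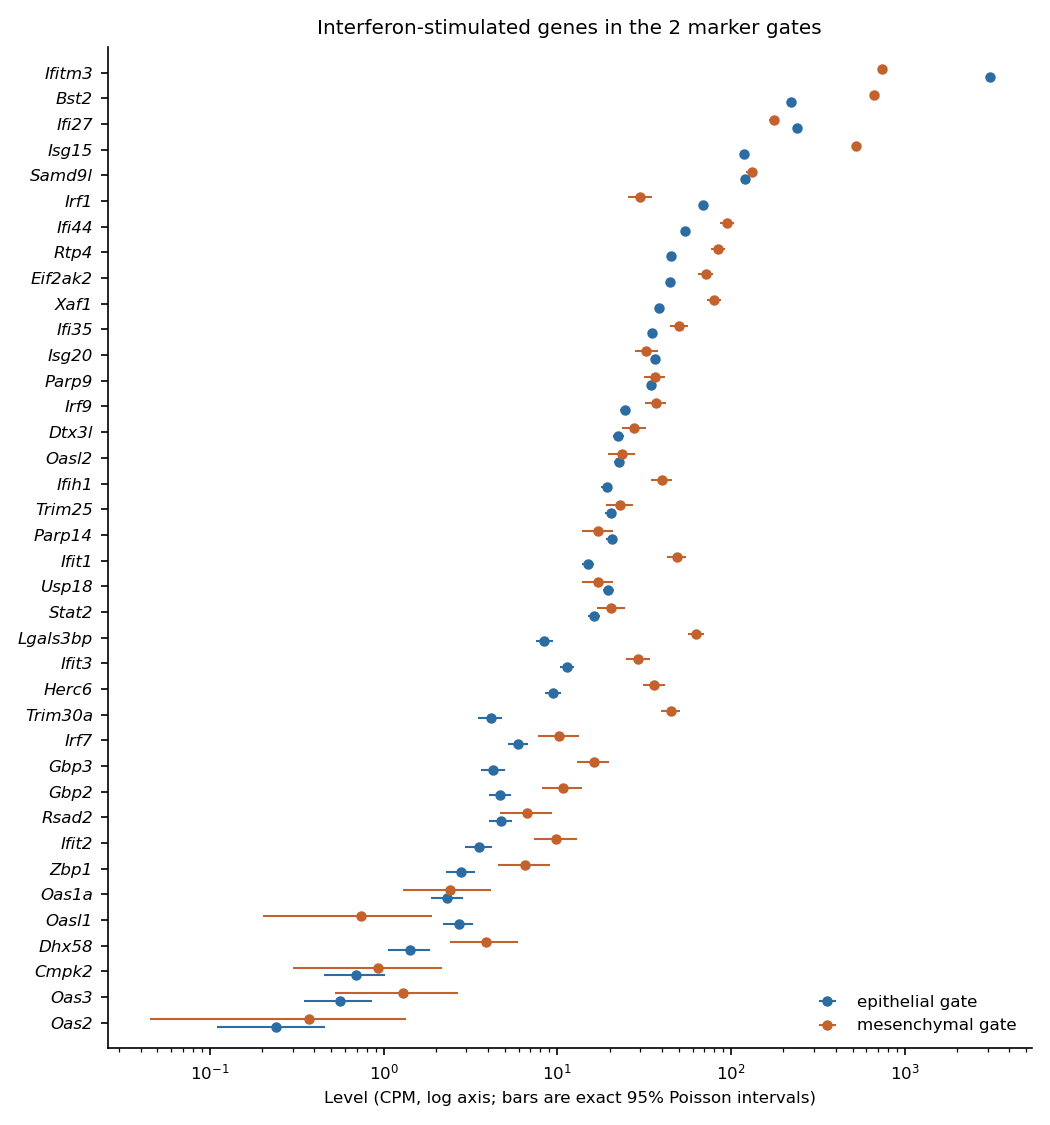
Level of each of the 38 measured interferon-stimulated genes (CPM, log axis) in epithelial (blue) and mesenchymal (orange) gate cells, ordered by level over all cells, with exact 95% Poisson intervals as bars. Ifitm3 and Irf1 lie to the left in mesenchymal cells, whereas Trim30a, Lgals3bp, Isg15, Herc6, Gbp3 and the IFIT genes lie to the right.

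Among pathway genes outside the list, none of 9 interferon genes was measurable. Ifnb1 and Ifnl3 had 2 UMIs each over all 14925 cells, Ifne, Ifnk and Ifnl2 had 1 each, and Ifna1, Ifna2, Ifna4 and Ifng had 0, where 3 UMIs would be 0.066 CPM. All 6 receptor genes were present, from Ifnlr1 at 15.0 CPM to Ifngr2 at 76.6 CPM. Of these 6, Ifnlr1, the specific chain of the type III interferon receptor, was lower in mesenchymal cells (3.54 against 16.2 CPM, ratio 0.218, 0.130 to 0.343), and no other receptor gene was past 2-fold. Of 21 tested targets outside the list, 10 were higher in mesenchymal cells and 1 lower, against 8.79% and 13.0% of all features. Gbp7 (6.78-fold), Ifi47 (3.84-fold) and Ifi203 (3.54-fold) were among the higher ones and the chemokine gene Ccl5 (0.450) was the lower one.

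Within the epithelial gate the summed core, Isg15 included, differed less than between the lineages, which did not hold for every core gene. Core sums without Isg15 were not compared in this way. Cells were placed in 11 overlapping gates by the share of their UMIs from 1 to 8 marker genes, each gate holding at most the highest 10% of epithelial cells. The summed core was highest in the gate of the antimicrobial secretory genes Ltf (lactoferrin) and Lcn2 (lipocalin-2), at 1058 CPM (1022 to 1094) against 628.6 CPM in other epithelial cells, a ratio of 1.68 (1.62 to 1.75). It was next highest in the gates of the chemokine genes Cxcl1, Cxcl2, Cxcl5, Ccl2 and Ccl20 (1.33, 1.28 to 1.38) and of Krt7 with laminin-332 (1.31, 1.25 to 1.36). The core was lowest in dividing cells, at 515.7 CPM (495.2 to 536.8) against 686.8 CPM, a ratio of 0.751 (0.719 to 0.783). In the Wfdc18 gate it was 0.759 (0.724 to 0.796). The Ly6d, Malat1 and Spp1 gates lay at 1.20, 1.17 and 1.13. The Pate14 gate, of 45 cells, lay at 1.12 (0.956 to 1.31), an interval that includes 1. Isg15 gave 291.6 of the 747.8 CPM of the core in that gate. In the gates of the 2 added sequences, GFP and Scar, the ratios were 0.995 and 0.943.

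In the lactoferrin and lipocalin gate 6 of 25 tested members were at least 2-fold higher and 0 lower, against 2.19% higher and 2.94% lower of all features tested, and the median member ratio was 1.60. Ifit1 stood at 34.8 CPM (28.7 to 41.9) inside and 13.2 CPM (12.0 to 14.5) outside, 2.64-fold higher. Lgals3bp (2.45-fold), Ifit3 (2.35-fold), Bst2 (2.12-fold), Oasl2 (2.06-fold) and Ifi44 (2.05-fold) were the other members past 2-fold. Of these 6, Oasl2 and Ifi44 differed less between the lineages, at 1.03-fold and 1.75-fold, and the others differed more. The median mitochondrial share of this gate was 3.64%, against 2.69% in all epithelial cells, and its part in the difference was not tested.

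In the chemokine gate 3 of 28 members were higher and 0 lower, against 1.10% and 1.23% of features. Irf1 stood at 140.7 CPM (129.8 to 152.3) inside and 59.4 CPM outside, 2.37-fold higher, followed by Ifit3 (2.14-fold) and Gbp2 (2.02-fold). Irf1 therefore ranked first here but was not among the members that led the lactoferrin gate. In dividing cells 0 of 28 members were higher and 3 were lower, against 4.48% and 2.18% of features: Rsad2 (9 UMIs, ratio 0.380), Ifi44 (22.9 against 58.7 CPM, 0.390) and Ifit3 (0.499). Only 3 of the 28 were above a ratio of 1 in dividing cells, where the median member ratio was 0.713 and that of all features 0.978.

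Ifitm3 lay on the same side of 1 as the core in 6 gates, among them lactoferrin and lipocalin (1.19), Ly6d (1.27), chemokine (1.15) and dividing (0.816), and in others it did not. It was lower in the Krt7 and laminin-332 gate (2333 against 3135 CPM, 0.744, 0.726 to 0.763), where the core was higher. It stood at 1505 against 3081 CPM in the 45 cells of the Pate14 gate (0.489, 0.436 to 0.545), where Isg15 was 2.48-fold higher. The sum over all 38 members was therefore below the other epithelial cells in both of these gates, at 0.896 and 0.683, and above them without Ifitm3, at 1.27 and 1.14.

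**Figure D2:**
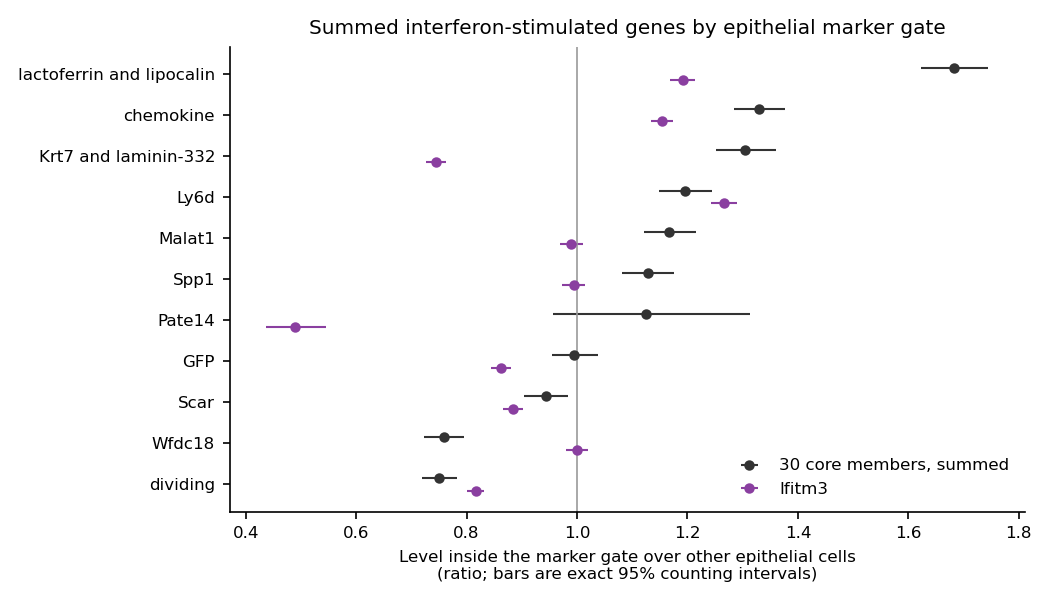
Ratio of the level inside each epithelial marker gate to that in the other epithelial cells, for the sum of the 30 core members (dark) and for Ifitm3 (purple), with exact 95% counting intervals as bars and a line at 1. The lactoferrin and lipocalin gate has the highest core ratio, 1.68, the dividing gate the lowest, 0.751, and Ifitm3 lies below 1 both where the core does (dividing, 0.816) and where it does not (Krt7 and laminin-332, 0.744).

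To ask whether a separate responding set of cells existed, each cell was thinned at random to 1500 UMIs, so that depth could not set how many genes it showed. This used 13281 cells and left out 1644 shallower ones. At least 1 of the 30 core members was seen in 56.7% of thinned cells, at least 3 different ones in 10.7% (10.2% to 11.3%) and at least 6 in 136 cells, or 1.02% (0.860% to 1.21%). The number of core UMIs per cell fell steadily, with 5747 cells at 0, 3928 at 1, 1816 at 2, 821 at 3 and 404 at 4, down to 89 cells with 10 or more and 1 cell with 28. No second peak was visible, and the counts form a graded tail at this depth. With a mean of 1.185 core UMIs per cell, a small separate group could merge into that tail. These counts therefore do not decide whether such a group exists.

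The tail was nevertheless long. The variance of the core UMI sum was 2.71 times its mean, where independent counts at 1 common rate would give 1. For single genes, 5 of the 26 members with a thinned mean of at least 0.01 had a variance at least 1.5 times the mean, against 2.27% of all such features. They were Ifitm3 (2.47), Isg15 (2.22), Bst2 (1.91), Ifit1 (1.79) and Ifit3 (1.56), and the median member stood at 1.04. Rsad2 had a ratio of 1.61 at a mean below that limit.

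Cells with 3 or more core members were more frequent in the mesenchymal gate, at 22.5% (20.5% to 24.7%), than in the epithelial gate, at 8.84% (8.31% to 9.38%). Within the epithelial gate they made up 20.2% (17.7% to 22.9%) of lactoferrin and lipocalin cells and 14.4% of chemokine cells, but 6.71% of dividing and 5.18% of Wfdc18 cells. Cells with 6 or more members were found in both lineages, 38 of 1557 mesenchymal and 90 of 11047 epithelial ones. Before thinning, cells with 3 or more members had a median of 3003 UMIs and cells with none 3155, with 2.80% and 2.62% mitochondrial UMIs, so they were not the deeper cells.

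The core genes were found together. The 30 members were dealt alternately, in the order listed, into list A and list B of 15 genes each, and list B was read in cells sorted by list A. The mean of list B was 0.498 UMIs per cell (0.483 to 0.513) in the 8941 cells with no list A UMI, 0.823 in those with 1, 1.26 in those with 2 and 2.93 (2.77 to 3.10) in the 426 with 3 or more. The step from none to 3 or more was 5.89-fold (5.53 to 6.28), and 5.37-fold with the lists exchanged. It was also seen within the epithelial gate (6.23-fold, 5.76 to 6.73) and within the mesenchymal gate (3.75-fold, 3.31 to 4.23). Isg15 carried part of list B: without it the step was 3.50-fold (3.18 to 3.84). With all 38 measured members dealt alternately in place of the core, the step was 1.17-fold, with Ifitm3 in the sum.

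**Figure D3:**
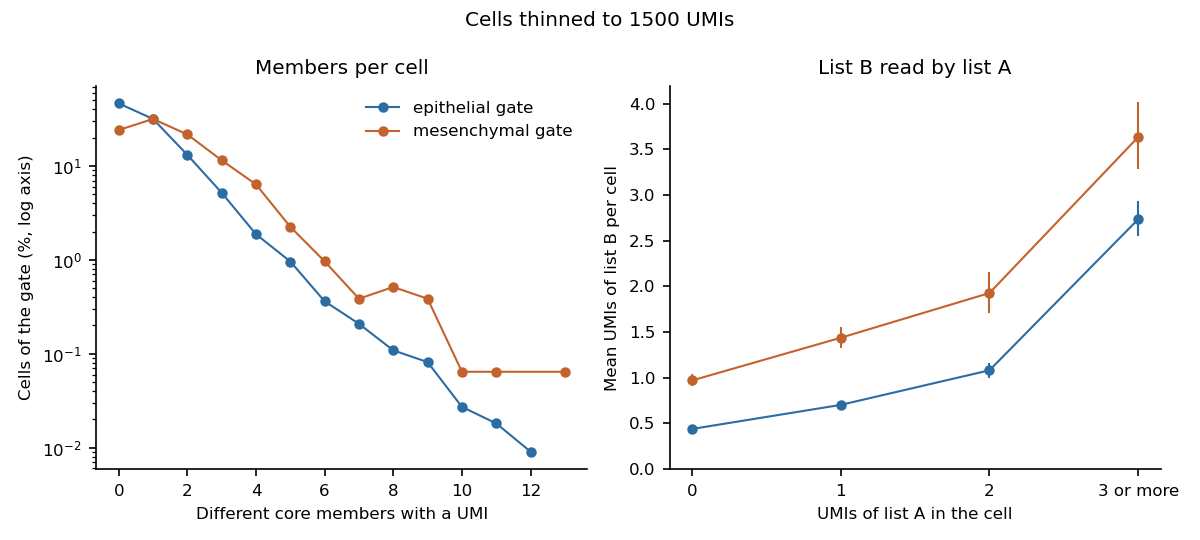
Left, percent of the cells of each gate (log axis) by the number of different core members seen after thinning to 1500 UMIs, in epithelial (blue) and mesenchymal (orange) cells. Right, mean UMIs of list B per cell, with exact 95% intervals, by the UMIs of list A, rising in epithelial cells from 0.439 at none to 2.74 at 3 or more and in mesenchymal cells from 0.971 to 3.64.

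Each gene was then read by the others. For every member, its level in thinned cells with at least 3 other core members was divided by its level in cells with none of them, so that no gene chose its own cells. Of 25 members with enough UMIs, 19 were at least 2-fold higher and 0 lower, and the median was 3.08-fold. Of 8593 features outside the list, 1.80% were higher and 0.547% lower across the same kind of cells, with a median of 1.02. In epithelial cells alone 19 of 23 members were higher, against 0.434% of other features higher and 0.244% lower. In mesenchymal cells alone 12 of 18 were higher, against 0.673% higher and 0.577% lower.

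Ifit3 had the highest ratio, with 182 UMIs in 1390 cells (87.3 CPM) against 19 UMIs in 5766 cells (2.20 CPM), 39.7-fold (24.7 to 67.5). These 10.5% of cells held 68.2% of its UMIs. Ifit1 stood at 123.6 against 4.72 CPM, 26.2-fold (18.8 to 37.3), with 60.5% of its UMIs in 10.3% of cells. Isg15 stood at 727.6 against 79.8 CPM, 9.12-fold (8.31 to 10.0), so that cells without other core members still carried it. Rsad2 (62 against 12 UMIs, 20.9-fold, 11.2 to 42.7), Zbp1 (23 against 8 UMIs, 11.7-fold), Gbp3 (8.41-fold) and Trim30a (6.95-fold) were below the expected-UMI limit and had wide intervals.

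The middle of the range held Ifi44 (5.42-fold), Oasl2 (5.36-fold), Rtp4 (4.95-fold), Herc6 (4.18-fold), Xaf1 (3.93-fold), Parp14 (3.35-fold), Ifih1 (3.21-fold) and Stat2 (3.08-fold). Dtx3l (2.98-fold), Usp18, which removes ISG15 from its targets (2.77-fold), Irf9 (2.63-fold) and Parp9 (2.35-fold) came next. All these values pool the lineages. Within mesenchymal cells Herc6 was 1.96-fold (1.04 to 3.82), Trim30a 1.996-fold (1.13 to 3.62) and Xaf1 2.36-fold higher, while Ifi44 was 5.20-fold higher. Within epithelial cells Xaf1 was 3.89-fold and Ifi44 5.13-fold higher, and Herc6 and Trim30a were under the expected-UMI limit. Bst2 (4.44-fold, 4.13 to 4.78) and Lgals3bp (5.21-fold, 3.76 to 7.24) are outside the core, had no part in sorting the cells and were past 2-fold. Within mesenchymal cells Bst2 was 2.39-fold and Lgals3bp 1.81-fold (1.12 to 2.97) higher, the latter short of 2-fold. Within epithelial cells they were 4.54-fold and 6.40-fold higher, Lgals3bp there on 39 against 32 UMIs, under the expected-UMI limit. Ifi35 (2.002-fold, 1.60 to 2.50) and Eif2ak2 (2.16-fold, 1.79 to 2.59) lay at the threshold, just inside it, and Samd9l (1.98-fold) and Isg20 (1.82-fold) just outside. Within epithelial cells Isg20 was past the threshold, at 2.10-fold (1.64 to 2.68). Within mesenchymal cells its ratio was 0.833, on 14 against 18 UMIs, under the expected-UMI limit. Under other filters, depths or thinning seeds Eif2ak2 lay between 1.63 and 2.05 and Ifi35 between 1.85 and 2.67, while Samd9l reached 2.01 and Trim25 2.17.

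With the lineages pooled, Trim25 (1.62-fold), Irf1 (1.56-fold) and Ifi27 (1.26-fold, 1.15 to 1.39) were short of 2-fold. Within epithelial cells Trim25 was 1.63-fold, Irf1 1.85-fold (1.52 to 2.24) and Ifi27 1.46-fold (1.31 to 1.62) higher. Within mesenchymal cells Ifi27 had a ratio of 0.843 (0.613 to 1.16), and Trim25 and Irf1 were under the expected-UMI limit. Ifitm3 stood at 2691 CPM in cells with 3 or more core members and 2839 CPM in cells with none, a ratio of 0.948 (0.921 to 0.976). Within the epithelial gate its ratio was 1.10 (1.06 to 1.13) and within the mesenchymal gate 2.003 (1.74 to 2.31), from 531.9 to 1066 CPM. The pooled value joins these with the different lineage makeup of the sets, since 24.7% of the cells with 3 or more core members were mesenchymal and 6.54% of those with none. By promoter, with the lineages pooled, the 8 tested members with ISRE letters had a median ratio of 3.83 and ranged from 0.948 to 39.7. The 12 tested members without had a median of 2.80 and ranged from 1.56 to 5.42. These are 8 of 14 members with the letters and 12 of 16 without. The expected-UMI limit left out members with high ratios on few UMIs, such as Rsad2 (20.9) with the letters and Cmpk2 (24.2) without.

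**Figure D4:**
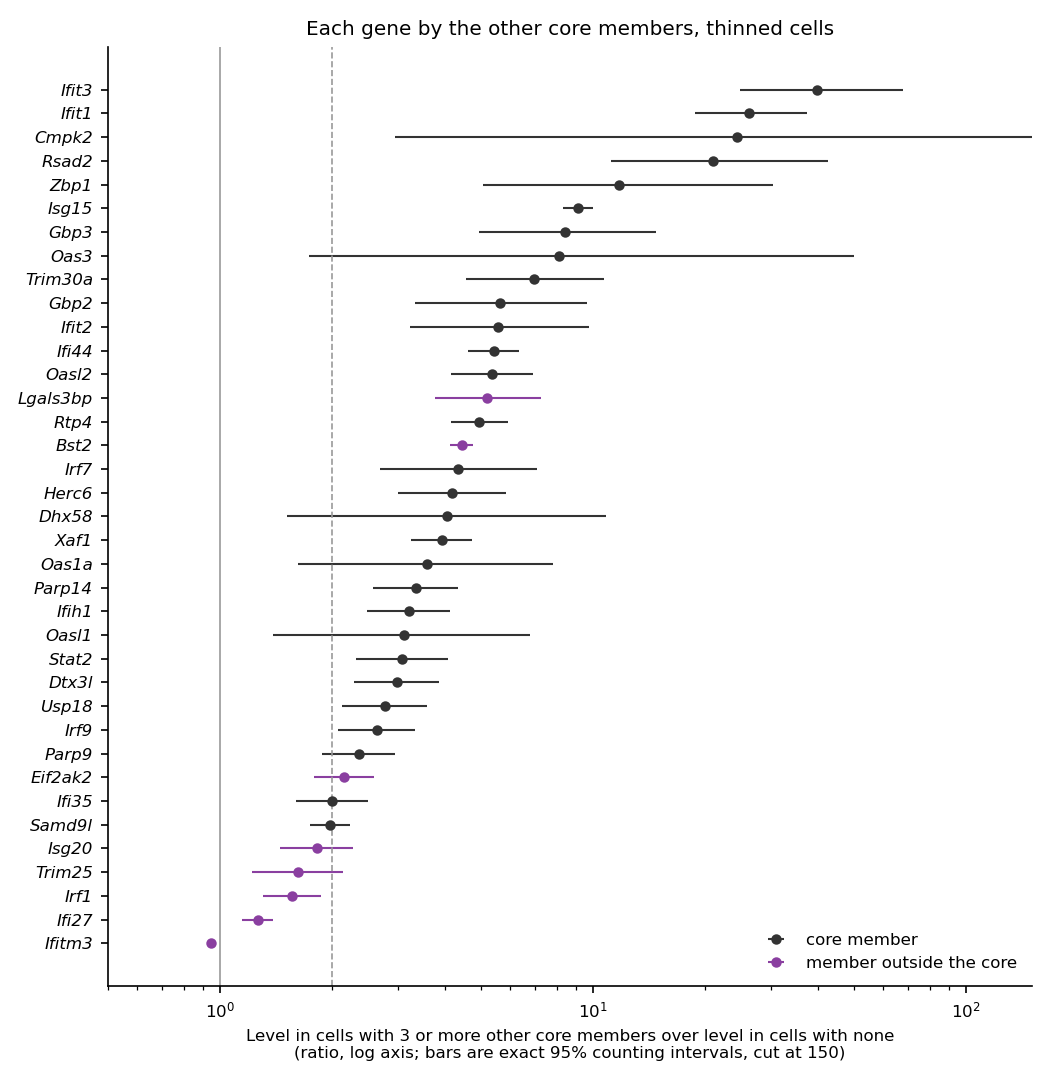
For each member, the ratio (log axis) of its level in thinned cells with 3 or more other core members to that in cells with none, for core members (dark) and members outside the core (purple), with exact 95% counting intervals as bars, a solid line at 1 and a dashed line at 2. Ifit3 and Ifit1 lie highest and Ifitm3 lowest, and genes with few UMIs such as Cmpk2 and Oas3 have wide bars.

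Pairs of genes showed the same. Of the 323 thinned cells with an Ifit1 UMI, 21.1% (16.7% to 25.9%) also had Ifit3, against 1.12% of the 12958 cells without Ifit1. Isg15 was present in 58.8% of cells with Ifit1 and 15.3% of those without, Rsad2 in 7.74% and 0.409%, and Bst2 in 57.0% and 26.6%. Ifi27, present in 31.3% and 28.2%, did not separate them beyond its interval (26.3% to 36.6%).

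The same reading with 6 or more other core members used 84 to 136 cells, depending on the gene. In them Isg15 stood at 2190 CPM, Ifit1 at 666.7 CPM, Ifit3 at 422.6 CPM, Ifi44 at 414.4 CPM and Rsad2 at 194.9 CPM (38 UMIs). Bst2 stood at 1328 CPM, 8.19-fold (7.17 to 9.34) above cells without core members. Ifitm3 at 2858 CPM and Ifi27 at 191.2 CPM were within their intervals of the cells with none, at ratios of 1.01 (0.926 to 1.09) and 0.930 (0.659 to 1.28). That value for Ifitm3 pools the lineages: its ratio was 1.18 (1.07 to 1.29) within epithelial and 2.61 (2.01 to 3.35) within mesenchymal cells. Of the 136 cells with 6 or more core members 27.9% were mesenchymal and 66.2% epithelial.

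Outside the list, the highest ratio in cells with 3 or more core members, among features past the expected-UMI limit, belonged to Ddx60, an antiviral helicase gene, at 53.4 against 4.29 CPM, 12.4-fold (8.51 to 18.5). Cxcl10, the chemokine that interferon gamma and type I interferon induce, stood at 131.1 against 10.8 CPM, 12.2-fold (9.58 to 15.5). Sprr2d (8.21-fold), Fmo2 (5.13-fold), AW112010 (4.98-fold), Ifi203 (4.87-fold), Ccl20 (4.83-fold), Col3a1 (4.61-fold), Adam19 (4.56-fold) and Ccn5 (4.54-fold) made up the first 10. Col3a1 and Ccn5 are mesenchymal gate markers, and 24.7% of these cells were mesenchymal against 6.54% of those with none. The part of that share in their ratios was not tested. Within epithelial cells Cxcl10 (11.4-fold) led, and the other leading genes included Sprr2d (9.74-fold), AW112010 (6.80-fold), Ltf (5.85-fold), Ccl20 (5.32-fold), Lcn2 (5.19-fold), Elmo1 (3.73-fold), Irgm1 (3.28-fold) and Adam28 (3.01-fold). Within mesenchymal cells Cxcl10 had 87 UMIs against 3 (31.1-fold, 10.3 to 153.6), and Mmp10 (6.43-fold) and Rnf213 (5.45-fold) were also higher.

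Genes upstream of the members were read in the same cells. None of the 6 receptor genes was past 2-fold in cells with 3 or more core members, where their ratios ran from 1.18 for Ifnlr1 to 1.49 for Il10rb. The signalling genes Jak1 (1.18-fold), Jak2 (1.10-fold), Irf3 (0.990) and the feedback inhibitor Socs1 (1.36-fold) were within 2-fold. None of 3 tested sensing genes was past 2-fold, with Ddx58, the RNA sensor RIG-I, closest at 1.95-fold (1.64 to 2.32). Within mesenchymal cells Ddx58 was past it, at 96.9 against 28.4 CPM (3.42-fold, 1.92 to 6.42), and within epithelial cells it was not (1.82-fold). Of 17 other targets 12 were higher and 0 lower with the lineages pooled, against 1.80% and 0.547% of features outside the list. Among the 12 were the immunoproteasome genes Psmb8 (3.90-fold) and Psmb9 (3.13-fold), the peptide transporter gene Tap2 (2.52-fold) and the GTPase gene Irgm1 (3.32-fold). Within epithelial cells 5 of 10 tested targets were higher, against 0.434% of features, and within mesenchymal cells 3 of 10, against 0.673%. Irgm1 was 3.28-fold higher within epithelial and 1.93-fold higher within mesenchymal cells. Tap2, under the expected-UMI limit in both, had ratios of 2.73 and 0.989 (12 against 13 UMIs). The class I genes B2m (1.81-fold), H2-D1 (1.81-fold) and H2-K1 (1.40-fold) were within 2-fold, and Ifitm2, the neighbour family member of Ifitm3, had a ratio of 0.893.

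The gates have edges that affect these counts. In the epithelial gate 1229 cells and in the mesenchymal gate 264 had a marker sum of only 3 or 4 UMIs, close to the minimum of 3. Doublets were not removed, and the cells with both kinds of marker stayed out of the comparison between lineages.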

How the data were processed

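The authors deposited 1 matrix of raw UMI counts, whole numbers for each gene in each cell barcode. Per the file headers it was written by Cell Ranger 8.0.1, and the submitters' processing notes name mm10, Cell Ranger and Scanpy 1.8.2. The 3 libraries of the labels (gene expression, barcode, scar) each have 1 replicate, the matrix names none of them, and it was treated as 1 pooled sample.

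Cells with 500 or more genes, 1000 or more UMIs and 20% or less mitochondrial UMIs were kept, and 0 doublets were removed. Levels are CPM from summed UMIs with exact Poisson intervals, shares have exact Clopper-Pearson intervals, and ratio intervals come from the exact binomial distribution, all at 95% and for counting error only. A cell was epithelial with at least 3 UMIs of Epcam, Cdh1, Krt5, Cldn7, Dsp and Perp and more than 2 times its mesenchymal sum (Vim, Col1a1, Col3a1, Col5a1, Dcn, Aebp1, Grem1, Ccn5, Zeb2), and mesenchymal by the reverse rule. Epithelial gates needed at least 3 UMIs of the gate genes and a share among the highest 10%. Features were compared at 2-fold where at least 20 UMIs were expected in the smaller set at the pooled level. A count of 0 was limited by 3 UMIs. The analysis used Python 3.11.15, numpy 2.4.6, scipy 1.17.1, pandas 2.3.3 and matplotlib 3.10.9, and the calling step was tested on simulated data. The thinning step was checked for depth and level on part of the measured cells.

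Positions came from GENCODE M21 and promoters from RefSeq on GRCm38.p6. Named genes were all members, the 5 with the largest ratio each way in a comparison, the 10 leading features outside the list, and fixed lists of ligands, receptors, signalling, sensing and target genes. Further members were named from their values, and a gene of these lists is not reported here. The members, lists and gates were chosen with earlier results of these data known.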

Additional observations from a re-analysis of the deposited data

How the results depend on the processing

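The alternatives were a stricter cell filter, a lower mitochondrial limit, leaving out the deepest cells, other thinning depths and seeds, other gates and other gene sums. The summed level moved from 4163 CPM to 4192, 4194 and 4225 CPM under the first 3. Cells with 3 or more core members made up 5.69% at 1000 UMIs and 15.6% at 2000 UMIs, so this share has no meaning apart from its depth. The list B step was 5.32-fold at 2000 UMIs, and, as alternatives added after seeing the data, 5.37-fold with the lists exchanged, 3.75-fold in mesenchymal cells and 3.50-fold without Isg15. With all members in the lists it was 1.17-fold. The mesenchymal to epithelial ratio reversed to 1.90 without Ifitm3 and to 2.12 with the core only (added). Gate sums reversed in the Krt7 and laminin-332 gate (1.27 without Ifitm3, 1.31 with the core) and in the Pate14 gate (1.14 and 1.12). The interval of the Pate14 core value, 0.956 to 1.31, includes 1. The sum in the Malat1 gate reversed at its highest 5% (0.962), and the cause was not tested. Members higher in mesenchymal cells numbered 12, and 8 to 15 under the alternatives, and 5 of 11 epithelial gates were above 1 in the summed members, against 4 to 7. Of 147 recomputed member ratios between the lineages 146 stayed within the interval of the main value, as did 183 of 208 ratios read by other members, and none of either kind reversed. No paired analysis was possible because there is 1 sample and no test. With 1 culture, no difference was checked against the spread between cultures.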

Other observations

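The 148 cells with both kinds of lineage marker had a median of 4252 UMIs and levels between those of the lineages for several members: Isg15 at 331.3 CPM, Bst2 at 529.2 CPM, Lgals3bp at 30.7 CPM and Ifitm3 at 1667 CPM. In the 1251 cells with too few lineage markers, with a median of 1382 UMIs, Isg15 stood at 173.9 CPM and Ifitm3 at 1444 CPM (1393 to 1495). The share of thinned cells with 3 or more core members was 14.9% in the former (22 of 148) and 14.2% in the latter (75 of 529).

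In the GFP gate 8.74% of thinned cells had 3 or more core members and 1.60% (0.933% to 2.55%) had 6 or more, where the epithelial gate as a whole had 8.84% and 0.815%. In the Scar gate these shares were 7.94% and 1.31% (0.717% to 2.19%).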
